A study of Homo sapiens with 2 samples.

Results

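The genes described here encode adaptors of natural killer (NK) cell receptors, most of which carry an immunoreceptor tyrosine-based activation motif (ITAM), and the first signalling proteins that act on them. They were taken by gene symbol, and all 10 were found among the 46427 rows of the deposited table: the adaptors TYROBP, HCST, CD247 and FCER1G, the kinases SYK, ZAP70, LCK and FYN, the scaffold LCP2 and the exchange factor VAV1. RNA was sequenced from NK92, an established human NK cell line that came from an NK cell leukemia. PPMX-T003 is an antibody against transferrin receptor 1, through which cells take up iron-loaded transferrin. After 18 h of culture the cells were divided between dishes and grown for a further 6 h, either with 10 µg/mL of PPMX-T003 (the PPMX-T003 library) or with 0 µg/mL (the control library). The column of the control library is named as 0 h in the table, whereas the described design gives both dishes the same further 6 h. If the control was harvested at 0 h, a difference in harvest time cannot be told apart from the exposure. The control library held 46766416 counts and the PPMX-T003 library 43178462.

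Each condition had 1 library, so every difference below compares these libraries and not the conditions, and it has no replicate check. Intervals are 95% intervals that cover counting error only. In bulk RNA, a lower share of cells that express a gene cannot be told apart from less RNA per cell.

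Many activating NK receptors have no signalling domain of their own and hold a small partner in the membrane, the adaptor. When the receptor is engaged, SRC family kinases such as LCK and FYN phosphorylate the tyrosines of the adaptor's ITAM, SYK or ZAP70 binds the phosphorylated pair, and LCP2 and VAV1 carry the signal to calcium release and to the actin cytoskeleton. HCST has no ITAM but a shorter motif that recruits phosphatidylinositol 3-kinase.

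The coding bases of these motifs are shown because they separate the members that pass signals to SYK and ZAP70 from HCST, which does not. They were read from the coding sequences of the GENCODE release 29 transcripts on GRCh38, 5′ to 3′ on the coding strand. Capitals mark the codons for the tyrosines and for the leucine, isoleucine or methionine that follows each of them.
TYROBP: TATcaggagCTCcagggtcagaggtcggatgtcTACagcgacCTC
CD247 motif 1: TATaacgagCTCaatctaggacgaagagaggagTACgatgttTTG
CD247 motif 2: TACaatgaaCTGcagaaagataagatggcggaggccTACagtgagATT
CD247 motif 3: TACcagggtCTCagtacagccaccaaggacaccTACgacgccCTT
FCER1G: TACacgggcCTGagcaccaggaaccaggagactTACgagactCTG
HCST: TACatcaacATG

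TYROBP has 113 codons and 1 ITAM at codons 91 to 105, encoded within chr19:35904596-35907223 on the minus strand and divided between exons 4 and 5. FCER1G has 86 codons and 1 ITAM at codons 65 to 79, within chr1:161218718-161218919 on the plus strand and also divided between exons 4 and 5. CD247 has 164 codons and 3 ITAMs, and each of them is divided between neighbouring exons: exons 3 and 4 for the first, exons 5 and 6 for the next and exons 7 and 8 for the last, within chr1:167438612-167439349, chr1:167434035-167435404 and chr1:167431708-167433029 on the minus strand. The second ITAM of CD247 is 48 bases long and the others are 45. Base by base, the ITAM of FCER1G shared 28 of 45 bases with the last motif of CD247 and 16 of 45 with that of TYROBP. HCST has 93 codons, and its motif of 12 bases lies in exon 4 at chr19:35904134-35904145 on the plus strand.

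The adaptors were present at very different levels. Levels between genes are compared per length, as the deposited TPM (transcripts per 1000000 transcripts), which the authors rounded to whole numbers. HCST, the partner of the receptor NKG2D, had a TPM of 300 in the control library and 323 in the PPMX-T003 library. CD247, the zeta chain that partners the natural cytotoxicity receptors NKp30 and NKp46, had a TPM of 205 and 216. TYROBP, which partners NKp44 and activating members of the KIR and CD94 families, had a TPM of 17 and 19. FCER1G, the gamma chain that partners CD16 and NKp46, had a TPM of 8 and 7. HCST thus made up 56.6% of the summed adaptor TPM in the control library and 57.2% in the PPMX-T003 library, and CD247 38.7% and 38.2%. The adaptors whose ITAM is single, TYROBP and FCER1G, took 3.21% and 1.51% in the control library.

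The kinases differed in level as well. ZAP70, the SYK family kinase best known from T cells, had a TPM of 149 in the control library and 157 in the PPMX-T003 library. Its relative SYK had a TPM of 6 in both. Per length, ZAP70 thus stood 24.8-fold above SYK in the control library (22.8 to 27.2 given the rounding of both values) and 26.2-fold in the PPMX-T003 library (24.1 to 28.6). FYN had a TPM of 118 and 122, and LCK a TPM of 75 and 74, in the control and the PPMX-T003 library. The level of FYN was therefore 1.57 times that of LCK in the control library and 1.65 times in the PPMX-T003 library. LCP2, the scaffold also called SLP-76, had a TPM of 182 and 173. VAV1, which activates small GTPases that act on actin, had a TPM of 123 in both libraries.

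The order of the levels was the same in both libraries, from HCST through CD247, LCP2, ZAP70, VAV1, FYN, LCK, TYROBP and FCER1G to SYK. The ranges of VAV1 and FYN overlapped in both libraries, as did those of FCER1G and SYK, and these pairs were not tested for a difference. All other neighbours in this order had separate ranges in both libraries. The plot of levels shows these ranges.

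The next question was whether the members differed between the libraries. Values are given as CPM (counts per 1000000 counts) after scaling of the libraries, and a gene was called when its 95% counting interval on the log2 ratio lay outside 0. By this rule 5 of the 10 members were higher in the PPMX-T003 library (HCST, CD247, ZAP70, FYN and VAV1), against 21.8% of the 13665 genes tested. None of the 10 was lower, against 23.9% of the genes tested. The differences were small. Of the 10 members, 0 were at least 1.2-fold higher, against 12.2% of the genes tested, and 0 were at least 1.2-fold lower, against 12.4%. The median log2 ratio of the members was 0.08, and that of all genes tested was -0.002. A narrow interval makes a call easier, so the share of calls depends on depth. Among the 8359 genes with at least 1000 counts, a limit chosen after the values were seen, 27.8% were called higher and 32.1% lower, and 5 of the 8 members that reached this limit were called higher. Of the same deeply counted genes, 2.79% passed 1.2-fold upward and 5.11% downward, so that few genes of the members' depth passed 1.2-fold.

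Among the adaptors, HCST (NCBI Gene 10870, chr19:35902529-35904377) had 75.9 CPM in the control library (interval 73.5 to 78.5) and 86.1 CPM in the PPMX-T003 library (83.4 to 88.9). These intervals did not overlap, and the log2 ratio was 0.18 (0.11 to 0.25), a 1.13-fold difference. Once a trend on GC content and transcript length was removed, described after the members, it was 0.05 (-0.01 to 0.12), or -0.01 (-0.08 to 0.05) with longest transcripts, so that the call of HCST ended. CD247 (NCBI Gene 919, chr1:167430640-167518529) had 149 CPM (145 to 152) and 163 CPM (160 to 167). It was also higher in the PPMX-T003 library, with a log2 ratio of 0.13 (0.09 to 0.18). Once the trend was removed, this was 0.09 (0.04 to 0.14). With longest transcripts it was 0.04 (-0.01 to 0.09), so that the call of CD247 ended there. TYROBP (NCBI Gene 7305, chr19:35904403-35908295) had 205 counts in the control library and 219 in the PPMX-T003 library. Its log2 ratio of 0.21 was as large as that of the called adaptors, but at this depth the interval ran from -0.07 to 0.49 and a difference was not detectable. Once the trend was removed, the log2 ratio of TYROBP was 0.08 (-0.20 to 0.36), or 0.01 (-0.27 to 0.30) with longest transcripts. FCER1G (NCBI Gene 2207, chr1:161215295-161219245) had 99 counts and 86 counts. Its log2 ratio of -0.08 (-0.52 to 0.35) likewise did not lie outside counting error. Summed over the 4 adaptors, the level was 231 CPM in the control library and 256 CPM in the PPMX-T003 library.

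HCST and TYROBP are neighbours on chromosome 19 and lie tail to tail, with 25 bases between them in RefSeq on GRCh38.p14. No exon base of TYROBP is shared with another gene in GENCODE release 29. HCST shares 307 exon bases with an unconfirmed transcript on the opposite strand that was not analysed here. The libraries were stranded, but whether strand was used in counting is not given in the sources used here. The ratio of HCST to TYROBP did not differ detectably between the libraries, with a log2 odds ratio of -0.03 (-0.32 to 0.26).

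Of the SYK family kinases, ZAP70 (NCBI Gene 7535, chr2:97713576-97756364) had 178 CPM in the control library (174 to 182) and 207 CPM in the PPMX-T003 library (203 to 211). Its log2 ratio of 0.22 (0.17 to 0.26) was a 1.16-fold difference. On the deposited TPM with a pseudocount of 1 the log2 ratio of ZAP70 was 0.07, below the 0.15 of TYROBP and the 0.11 of HCST. SYK (NCBI Gene 6850, chr9:90801600-90898549) had 12.2 CPM (11.2 to 13.2) and 12.3 CPM (11.2 to 13.4). The levels of SYK overlapped, with a log2 ratio of 0.01 (-0.16 to 0.19). The balance of ZAP70 to SYK, which does not depend on the scaling of the libraries, was shifted toward ZAP70 in the PPMX-T003 library by a log2 odds ratio of 0.20 (0.03 to 0.38). Once the trend on GC content and length was removed, it was 0.05 (-0.13 to 0.23) on median and on longest transcripts, so that this call ended.

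Of the SRC family kinases, FYN (NCBI Gene 2534, chr6:111660332-111873452) had 166 CPM in the control library (162 to 170) and 178 CPM in the PPMX-T003 library (174 to 182). FYN was higher in the PPMX-T003 library, with a log2 ratio of 0.10 (0.05 to 0.15). LCK (NCBI Gene 3932, chr1:32251265-32286165) had 70.4 CPM (68.0 to 72.8) and 71.6 CPM (69.1 to 74.2). LCK did not differ beyond counting error, with a log2 ratio of 0.03 (-0.05 to 0.10). The ratio of FYN to LCK had a log2 odds ratio of 0.07 (-0.01 to 0.16), which holds 0 before any correction for base composition. These 3 pairs were the ones compared.

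LCP2 (NCBI Gene 3937, chr5:170246233-170297777) had the most counts of the members, 16061 in the control library and 14585 in the PPMX-T003 library. After scaling these were 343 CPM (338 to 349) and 338 CPM (333 to 344). LCP2 did not differ beyond counting error, with a log2 ratio of -0.02 (-0.05 to 0.01). Its exons share 123 bases with C5orf58 on the opposite strand, which had 0 counts in both libraries. VAV1 (NCBI Gene 7409, chr19:6772708-6857361) had 157 CPM (153 to 161) and 164 CPM (160 to 167). VAV1 was the weakest of the 5 calls, with a log2 ratio of 0.06 (0.01 to 0.11). Once the trend on GC content and length was removed, it was 0.02 (-0.03 to 0.07), or -0.015 (-0.06 to 0.03) with longest transcripts. The call of VAV1 thus ended.

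Differences between the libraries moved with base composition over all genes tested. The genes tested were divided by the GC content of their transcripts into 10 bins of like size, and the median log2 ratio climbed from -0.13 in the bin poorest in GC to 0.12 in the richest. ZAP70, at 62.3% GC, lies in the richest bin. HCST and VAV1, at 58.4% and 56.2% GC, lie in a bin whose median was 0.07. The log2 ratio of HCST was above that median, whereas the 0.06 of VAV1 was close to it. FYN, at 49.2% GC, lies in a bin with a median of -0.02. LCK, at 57.7% GC, had a log2 ratio of 0.03 in the bin of HCST and VAV1. The trend was not tested among the members themselves.

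When a robust regression on GC content and transcript length was removed, 3 of the 10 members were called higher: CD247 at 0.09 (0.04 to 0.14), ZAP70 at 0.10 (0.06 to 0.15) and FYN at 0.07 (0.03 to 0.12). The same correction left 18.2% of all genes with a value called higher and 21.7% called lower. HCST was not called. The trend fitted at its GC content and median length of 529 bases was 0.13, or 0.19 with longest transcripts, whereas the GC bins take no account of length. VAV1 had a log2 ratio of 0.02 (-0.03 to 0.07), which holds 0. With the longest transcript of each gene, a choice made after the values were seen, the 3 genes called higher were ZAP70, FYN and LCP2, and CD247 had a log2 ratio of 0.04 (-0.01 to 0.09). That correction left 16.4% of all genes with a value called higher and 21.4% called lower. LCK turned to -0.07 (-0.14 to 0.0004) on median transcripts, and LCP2 to 0.01 (-0.02 to 0.05) on median and 0.04 (0.01 to 0.07) on longest transcripts. ZAP70 and FYN were thus called higher under either correction. The balance of ZAP70 to SYK fell to a log2 odds ratio of 0.05 (-0.13 to 0.23) once the trend was removed, so its call ended. That of FYN to LCK, whose interval held 0 before, became 0.14 (0.06 to 0.23) on median and 0.18 (0.09 to 0.26) on longest transcripts, so that it was called toward FYN under both corrections. The plot of ratios by GC content shows where each member stood against genes of like GC content, whatever their length.

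The other genes of the pathway were taken from 7 lists of 114 genes that surround the members. Of these, 100 had enough counts to be tested and 8 had no count in either library. By the counting interval 20 of the 100 were higher in the PPMX-T003 library and 42 were lower, against 21.8% and 23.9% of all genes tested. Among genes with at least 1000 counts these shares were 27.8% and 32.1%. Once the trend was removed, 16 were higher and 32 lower, against 18.2% and 21.7% of all genes with a value. With longest transcripts the counts were 16 and 36, against 16.4% and 21.4%. The same shares apply to each list below. The median log2 ratio of the 100 was -0.03 before any correction. The members' median of 0.08 thus lay on the other side of 0 from that of the genes around them. The members were also richer in GC, with a median of 55.2% against 48.7%. Once the trend was removed the medians were 0.05 for the members and -0.04 for the genes around them, or 0.02 and -0.02 with longest transcripts. At 1.2-fold, 4 of the 100 were higher and 8 were lower, against 12.2% and 12.4% of all genes tested. Among genes with at least 1000 counts these shares were 2.79% and 5.11%. The 4 include GAB2, at 14 and 20 counts with an interval that holds 0. Once the trend was removed on median transcripts, ORAI1, PRKCD, TXK, PIK3CG and NFAT5 no longer passed 1.2-fold, whereas NCR1 then passed it downward.

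Among 12 tested receptors, 4 were higher and 2 lower by the interval, and 3 and 1 once the trend on GC content and length was removed, or 3 and 3 with longest transcripts. NCR3, which encodes the CD247 partner NKp30, was the most abundant, with a TPM of 393 in the control library and 396 in the PPMX-T003 library. Its log2 ratio was 0.07 (0.03 to 0.11), -0.03 (-0.07 to 0.01) once the trend was removed and -0.08 (-0.12 to -0.04) with longest transcripts, so its direction turned. CD160, a receptor for HLA-C and HVEM, had 1077 counts in the control library and 1252 in the PPMX-T003 library and was higher after scaling, with a log2 ratio of 0.33 (0.22 to 0.45). NCR1, which encodes NKp46, had 37.7 CPM and 32.6 CPM and was lower, with a log2 ratio of -0.21 (-0.31 to -0.11). The partners of the adaptors named next were chosen after their values were seen. KLRK1, which encodes the HCST partner NKG2D, had a TPM of 17 and 16, far below that of HCST in both libraries. Its level is uncertain, since it shares 1900 exon bases on the same strand with the readthrough gene KLRC4-KLRK1, which had 32 and 16 counts. FCGR3A, which encodes the FCER1G partner CD16, had 16 counts in the control library and 15 in the PPMX-T003 library.

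Of 7 tested SRC and TEC family kinases beside the members, 0 were higher and 4 were lower. Once the trend was removed, 2 were lower, TXK and TEC, or 3 with longest transcripts. TEC had 204 counts in the control library and 101 in the PPMX-T003 library, and its log2 ratio of -0.88 (-1.26 to -0.55) was the lowest of the 100. TXK, a TEC family kinase of T and NK cells, had 117 CPM and 93.8 CPM and was lower, with a log2 ratio of -0.32 (-0.38 to -0.26). FGR was the most abundant of this list, at a TPM of 205 and 200, and did not differ beyond counting error, but was lower with longest transcripts in the removed trend, at -0.06 (-0.10 to -0.02).

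Of 18 tested adaptors and scaffolds, 2 were higher and 10 were lower, against 21.8% and 23.9% of all genes tested. Once the trend was removed, 0 were higher and 7 lower, against 18.2% and 21.7% of all genes with a value. With longest transcripts, 1 was higher and 9 were lower, against 16.4% and 21.4%. LAT2, a membrane adaptor related to LAT, had 24.9 CPM and 19.6 CPM, a log2 ratio of -0.34 (-0.47 to -0.21). GRAP2, also called GADS, binds LCP2 and had 63.0 CPM and 53.9 CPM, a log2 ratio of -0.22 (-0.30 to -0.15). NCK2, which joins LCP2 to the actin machinery, had 280 and 205 counts and a log2 ratio of -0.33 (-0.60 to -0.07). SH2D1A, the SLAM receptor adaptor SAP, was the most abundant, at a TPM of 246 and 245.

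Of 8 tested lipid kinases and phospholipases, 2 were higher and 4 lower, and 2 and 1 once the trend was removed, or 3 and 1 with longest transcripts. PIK3CD, the most abundant of them at a TPM of 188 and 190, had a log2 ratio of 0.06 (0.03 to 0.09). With longest transcripts in the removed trend, this interval ran from -0.001 to 0.06 and held 0. PIK3CG, a leukocyte phosphatidylinositol 3-kinase, had 206 CPM and 169 CPM and was lower, with a log2 ratio of -0.29 (-0.33 to -0.25). PIK3CA, which encodes the alpha catalytic subunit, had a log2 ratio of -0.14 (-0.25 to -0.04). Once the trend was removed this was -0.04 (-0.14 to 0.07), and with longest transcripts 0.04 (-0.07 to 0.14), so that its call ended.

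Downstream of VAV1, 6 of 13 tested genes of small GTPase exchange and actin were higher and 5 were lower. CORO1A, which encodes a leukocyte actin-binding protein, had the highest TPM of the 7 lists, 2491 and 2470. WIPF1, which stabilises the Wiskott-Aldrich syndrome protein, had 1260 CPM and 1100.1 CPM, a log2 ratio of -0.20 (-0.21 to -0.18). DOCK8, an exchange factor for CDC42, had a log2 ratio of -0.17 (-0.20 to -0.13). The median log2 ratio of this list was 0.03. Once the trend was removed, 3 were higher and 7 lower, the median was -0.04, and CORO1A turned from 0.04 (0.03 to 0.05) to -0.11 (-0.12 to -0.10).

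Of 24 tested downstream messengers, 3 were higher and 10 were lower, against 21.8% and 23.9% of all genes tested. Once the trend was removed, 6 were higher and 8 lower, against 18.2% and 21.7% of all genes with a value. With longest transcripts, 5 were higher and 9 lower, against 16.4% and 21.4%. ITPR1, a calcium release channel, had 94.2 CPM and 71.9 CPM and was lower, with a log2 ratio of -0.39 (-0.46 to -0.32). NFAT5 had 85.5 CPM and 67.5 CPM and was lower, at -0.34 (-0.41 to -0.27). Once the trend was removed, NFAT5 was at -0.21 (-0.28 to -0.14), or -0.16 (-0.23 to -0.09) with longest transcripts, and no longer passed 1.2-fold. ORAI1, the calcium channel of the plasma membrane, had 10.7 CPM and 14.1 CPM and was higher, at 0.39 (0.22 to 0.56). Once the trend was removed, ORAI1 was at 0.24 (0.07 to 0.41), or 0.20 (0.02 to 0.37) with longest transcripts, and no longer passed 1.2-fold. PRKCD was also higher, with a log2 ratio of 0.34 (0.20 to 0.48). PRKCH was the most abundant, at a TPM of 228 and 223.

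Of 18 tested genes listed as inhibitors, 3 were higher and 7 were lower, and 2 and 6 once the trend was removed, on median and on longest transcripts. CSK, chosen after its values were seen, turned from 0.08 (0.05 to 0.12) to -0.03 (-0.06 to -0.003) once the trend was removed. CBL, a ubiquitin ligase that acts on SYK and ZAP70, had 208 CPM and 168 CPM, a log2 ratio of -0.31 (-0.36 to -0.27). PTPN11, a phosphatase that can also promote signalling, was lower at -0.18 (-0.21 to -0.14). PTPRC, the phosphatase CD45, which also activates LCK and FYN, was the most abundant at a TPM of 343 and 325. Its log2 ratio was -0.04 (-0.06 to -0.01) and turned to 0.03 (0.01 to 0.06) once the trend was removed. The plot of the pathway lists shows these genes beside those that were not named.

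Several of the named pathway genes share exon bases with another gene, so their counts are less certain. On the same strand, NFAT5 shares 1588 bases and PRKCH 419 bases with genes that were not analysed here, and SH2D1A shares 89 bases with TEX13D, which had 14 and 24 counts. On the opposite strand, PIK3CD shares 89 bases with CLSTN1, which had 8916 and 7938 counts. PTPN11 shares 111 bases with RPL6, which had 35718 and 31984 counts. CD160 shares 421 bases with RNF115, which had 4398 and 4060 counts. For CBL the opposite gene MCAM had 0 counts in both libraries.

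The cell line was checked against markers. All 11 NK cell markers were detected, with a summed TPM of 7067 in the control library and 7690 in the PPMX-T003 library, and NKG7 was the most abundant of them at a TPM of 3215 and 3445. Of the NK markers, 7 were higher by the interval and 2 were lower, against 21.8% and 23.9% of all genes tested. Once the trend was removed 5 were higher and 2 lower, and IL2RB turned from 0.11 (0.09 to 0.13) to -0.02 (-0.04 to -0.002). The median log2 ratio of the NK markers was 0.16 (0.02 after the trend on GC content and length was removed), beside 0.08 for the members (0.05 after it was removed). With longest transcripts in the removed trend the order turned, at 0.05 for the NK markers and 0.02 for the members. The NK marker list therefore moved in the same direction as the members, and its part in the members' values was not tested. Of 8 T cell markers, 5 had no count in either library, among them CD3D and CD3G, while CD3E reached a TPM of 673 and 698. The 4 B cell markers reported summed to a TPM of 2 and 1, with CD79A and PAX5 each at a TPM of 1 in the control library and MS4A1 at 0 counts. PAX5 had 169 counts in the control library and 78 in the PPMX-T003 library. The 7 myeloid markers summed to 3 and 2, with ITGAM most abundant, at 213 and 180 counts, and MPO at 0 counts.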

How the data were processed

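RNA of 1 control and 1 PPMX-T003 library of NK92 cells was analysed. The submitters' processing notes name Trimmomatic 0.38, HISAT2 2.2.0, StringTie 2.1.3b, edgeR 3.17 and hg38. The authors deposited read counts per gene, with commas that were removed here, and FPKM and TPM rounded to whole numbers, which were treated as a score. Because of the commas the deposited counts were recorded under a general unit. With 1 library per condition no spread between replicates could be estimated, and no count model was fitted.

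The libraries were scaled by the trimmed mean of M-values (trimming 30% of the log ratios and 5% of the mean levels). Log2 ratios of CPM used a prior count of 2, for genes whose counts in both libraries came to 20 or more. The counting interval was a 95% Clopper-Pearson interval on the fraction of a gene's counts found in the PPMX-T003 library, expressed as a log2 ratio. Intervals on CPM were exact Poisson intervals, and pairs of genes were compared by the exact conditional odds ratio. All were computed in scipy 1.17.1, statsmodels 0.14.6, pandas 2.3.3 and numpy 2.4.6 under Python 3.11.15. Only the log2 ratios and their counting intervals were tested on simulated counts, drawn without spread between cultures and without a trend on GC content. The CPM intervals, the odds ratios and the removed trend were not tested in this way. A gene at or under 3 counts was taken as not detected. GC content and length were medians over transcripts of GENCODE release 29, known for 91.8% of the genes tested. The trend came from the 10161 such genes that had 200 or more counts.

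From each list, the gene with the highest TPM in the control library, the 2 genes with at least 100 counts whose interval lay farthest from 0 and every gene past 1.2-fold whose interval lay outside 0 were named. The result of 1 marker gene is not reported here. The members and lists were chosen with earlier results of these data known. The alternatives were other scalings (median of ratios, library size, upper quartile), prior counts of 0.5 and 5, the deposited TPM with a pseudocount of 1, the removed trend, other count minimums and a 99% interval.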

Additional observations from a re-analysis of the deposited data

How the results depend on the processing

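With 1 library per condition no spread between cultures is known, so that no replicate could be left out in turn. No paired analysis was possible because there was 1 library in each condition. The count of 5 members called higher came out as 5 under each scaling, as 4 with a 99% interval (against 16.2% of all genes tested) and as 3 under each removed trend, on median transcripts (18.2%) or on longest transcripts (16.4%). In the last case the members' median log2 ratio was 0.020. With longest transcripts, a choice made after the values were seen, the called members HCST (-0.013) and VAV1 (-0.015) changed sign, as did LCK (-0.07) and LCP2 (0.04), and the log2 odds ratio of FYN to LCK was 0.18. Prior counts and count minimums could not change the count of members called higher, since the interval uses no prior and the called members are deeply counted. LCK (-0.07) and LCP2 (0.01) also changed sign on median transcripts, and LCK (-0.02) on the deposited TPM. The trend's own construction lowers genes rich in GC. The count of 0 members past 1.2-fold, in either direction, held under every alternative run. The deposited TPM gave a median log2 ratio of -0.05 over genes with a control TPM of at least 10, and a members' median of 0.02. Pathway genes called higher ranged from 16 to 23 and those called lower from 32 to 44. Under 500 counts, as for TYROBP and FCER1G, differences of the size seen in the other members are not detectable.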

Other observations

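Of the T cell markers, CD3E had 19080 counts in the control library and 18942 in the PPMX-T003 library, whereas CD3D and CD3G, which pair with it in the T cell receptor complex, had 0 counts in both. After scaling CD3E was higher, with a log2 ratio of 0.11 (0.08 to 0.14). CD28 had 2252 and 1803 counts, a log2 ratio of -0.20 (-0.29 to -0.11), or -0.10 (-0.19 to -0.01) once a trend on GC content and transcript length was removed. PAX5, a transcription factor of B cells, had 169 counts in the control library and 78 in the PPMX-T003 library, a log2 ratio of -0.98 (-1.40 to -0.60).

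Among the effector genes of NK cells, GZMB, which encodes granzyme B, had 732 CPM in the control library and 884 CPM in the PPMX-T003 library, a log2 ratio of 0.27 (0.25 to 0.29). TBX21, a transcription factor of NK cells, had 344 CPM and 408 CPM, a log2 ratio of 0.25 (0.21 to 0.28). Once the trend on GC content and length was removed, these were 0.21 (0.19 to 0.23) and 0.17 (0.14 to 0.20). Both were picked after the values of the NK markers were seen. In the same list NCAM1 and KLRC1 were lower, with log2 ratios of -0.08 (-0.12 to -0.04) and -0.09 (-0.14 to -0.04), and KLRC1 came to -0.002 (-0.06 to 0.05) once the trend was removed.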
